A study of Homo sapiens with 12 samples.

Results

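The cholesterol and fatty acid synthesis genes described here are 35 genes of the 27864 in a count table from T47D breast cancer cells. They were taken by symbol, and the members were chosen with earlier results of these data known. Of these, 17 are enzymes that build sterols from acetyl units, and 4 regulate this supply or carry sterol. The other 14 make, desaturate, elongate or activate fatty acids. Each symbol was found, and all 35 were among the 16081 genes that passed the filter on low counts. T47D is an established luminal, oestrogen receptor positive breast cancer line. A control line (CTRL) and a line with a knockout of NF1 (NF1KO), which encodes the RAS GTPase-activating protein neurofibromin, each received DMSO as vehicle or BYL719 at 3 µM for 48 h. BYL719 is a drug also called alpelisib that inhibits the alpha form of PI3 kinase. Polyadenylated RNA was sequenced in 3 CTRL DMSO, 3 CTRL BYL719, 2 NF1KO DMSO (replicates 2 and 3) and 3 NF1KO BYL719 libraries. How the knockout was made, and whether NF1KO is 1 clone or a pool, is not given in the sources used here, so the loss of NF1 and any other difference between the lines cannot be told apart.

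Libraries held between 53283945 and 60148876 counts, and levels are given as CPM, the counts of a gene scaled to a common library size. NF1 was at 289, 209 and 249.99 CPM in CTRL DMSO, 214, 147 and 152 in CTRL BYL719, 0.480 and 0.471 in NF1KO DMSO and 0.891, 0.547 and 0.400 in NF1KO BYL719, so every library went with its genotype label. All 10 luminal epithelial markers passed the filter, with a summed level of 9929, 11435 and 10716 CPM in CTRL DMSO, 12030 to 14001 in CTRL BYL719, 11149 and 11295 in NF1KO DMSO and 10716 to 11426 in NF1KO BYL719. In CTRL this sum was higher in BYL719 without overlap. Of the 10 markers, 5 were called higher and 0 lower there, beside 22.6% and 21.8% of all tested genes. Of the adipocyte markers, all 6 stayed under 1 CPM in every library, with LEP at 0 and a summed level of 0.572 to 1.10 CPM. The 7 fibroblast markers summed to 16.8 to 55.4 CPM, nearly all of it COL1A1 (up to 55.2 CPM), with FAP at 0 and 6 of the 7 under 1 CPM in every library. That sum differed between groups, at 52.2, 49.8 and 55.4 CPM in CTRL DMSO, 35.9, 27.5 and 31.96 in CTRL BYL719, 25.95 and 26.1 in NF1KO DMSO and 16.8, 20.7 and 21.3 in NF1KO BYL719. Endothelial markers summed to 0.259 to 1.07 CPM. Leukocyte markers summed to 2.28 to 2.44 CPM in CTRL DMSO, 2.88 to 3.76 in CTRL BYL719, 1.88 and 1.98 in NF1KO DMSO and 2.08 to 2.58 in NF1KO BYL719, with no overlap between treatments in either line. The part of the luminal, fibroblast and leukocyte sums in the results below was not tested. The CTRL libraries numbered 1 stood apart from the other CTRL libraries of their treatment, and results without both of them are given for some of the calls. In such bulk RNA, fewer cells with a transcript and less of it per cell cannot be told apart.

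Sterols and fatty acids are both built from acetyl-CoA. In the mevalonate route, acetyl units are joined, reduced and phosphorylated to isoprenoid units, which are condensed to squalene, closed to lanosterol and trimmed to cholesterol. In lipogenesis, acetyl-CoA is carboxylated to malonyl-CoA, chained to palmitate and then desaturated and elongated. Both sets of genes are classical targets of the SREBP transcription factors, which are held in the endoplasmic reticulum by INSIG proteins when sterol is plentiful, and which act at promoters together with NF-Y and Sp1. PI3 kinase signalling through AKT and mTORC1 is known to raise SREBP activity in many cells.

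Promoter sequences of the members were read from RefSeq on GRCh38.p14, 250 bases up to the annotated transcript start, for the 32 members that have a window in the table used here. Both strands were searched for the SREBP element TCACNCCAC, the NF-Y box CCAAT, the E-box CACGTG and the Sp1 box GGGCGG, each counted wherever its letters occurred. An NF-Y box lay in a window of 24 of the 32 members (75%), beside 39.2% of the 18858 genes of the count table that have a window. Those genes were not filtered on counts, whereas all members had passed the filter, and the part of this in the shares was not tested. An Sp1 box lay in 30 (93.8%, beside 56.9%) and an E-box in 3, ELOVL5, INSIG1 and SC5D (9.38%, beside 9.03%). The SREBP element as spelled was found for 1 member, SREBF2 (3.13%, beside 1.11%), where it began 133 bases before the start. The 6 windows below are those of SREBF2, which holds that element, of 3 genes among those with the largest fall under BYL719 in CTRL (INSIG1, SCD and EBP), and of the 2 genes with the smallest adjusted p for a difference in that response between the lines (ELOVL6 and FADS1), printed 5′ to 3′ with NF-Y boxes (CCAAT, or ATTGG on the other strand) and the SREBP element in capitals.
SREBF2 (chr22:41832855-41833104, plus strand): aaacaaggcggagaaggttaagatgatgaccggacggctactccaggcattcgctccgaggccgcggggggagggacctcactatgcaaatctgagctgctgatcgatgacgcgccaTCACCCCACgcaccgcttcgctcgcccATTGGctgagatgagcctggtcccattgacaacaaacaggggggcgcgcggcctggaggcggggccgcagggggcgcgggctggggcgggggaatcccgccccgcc
INSIG1 (chr7:155297628-155297877, plus strand): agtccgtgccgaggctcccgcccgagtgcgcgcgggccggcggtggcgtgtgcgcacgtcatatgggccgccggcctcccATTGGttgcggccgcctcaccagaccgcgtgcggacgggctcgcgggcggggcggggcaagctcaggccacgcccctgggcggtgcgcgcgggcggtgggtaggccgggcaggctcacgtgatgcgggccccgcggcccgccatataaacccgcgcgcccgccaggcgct
SCD (chr10:100346983-100347232, plus strand): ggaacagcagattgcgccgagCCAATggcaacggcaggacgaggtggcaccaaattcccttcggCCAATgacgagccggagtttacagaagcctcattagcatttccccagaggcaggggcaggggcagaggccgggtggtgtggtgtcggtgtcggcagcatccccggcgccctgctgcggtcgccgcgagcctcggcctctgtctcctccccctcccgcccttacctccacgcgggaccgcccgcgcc
EBP (chrX:48521558-48521807, plus strand): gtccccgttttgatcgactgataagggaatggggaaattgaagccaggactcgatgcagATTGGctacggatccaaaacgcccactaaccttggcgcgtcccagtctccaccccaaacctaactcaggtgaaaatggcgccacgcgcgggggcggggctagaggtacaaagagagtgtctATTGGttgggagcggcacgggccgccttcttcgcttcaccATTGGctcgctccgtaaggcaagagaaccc
ELOVL6 (chr4:110198616-110198865, minus strand): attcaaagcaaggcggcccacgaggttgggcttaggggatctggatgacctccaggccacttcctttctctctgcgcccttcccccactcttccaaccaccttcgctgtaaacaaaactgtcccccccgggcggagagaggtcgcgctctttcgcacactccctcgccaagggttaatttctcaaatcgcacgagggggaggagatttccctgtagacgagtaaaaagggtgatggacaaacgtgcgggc
FADS1 (chr11:61817004-61817253, minus strand): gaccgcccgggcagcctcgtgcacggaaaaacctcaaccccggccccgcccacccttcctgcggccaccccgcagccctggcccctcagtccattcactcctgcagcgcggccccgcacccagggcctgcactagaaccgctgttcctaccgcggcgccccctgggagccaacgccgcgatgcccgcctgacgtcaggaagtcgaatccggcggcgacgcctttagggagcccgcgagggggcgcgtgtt
EBP holds 3 NF-Y boxes, SCD 2, INSIG1 and SREBF2 1 each, and the windows of ELOVL6 and FADS1 hold none. FADS2, whose fall under BYL719 in CTRL lay between those of EBP and SCD, is not printed, and its windows hold none either. The ELOVL6 window lies inside the span of the gene given below, so the bases just before its outermost start were not searched. A match is a stretch of letters, not a measured binding site. The genes themselves lie, in the same build, at chr22:41833105-41907305 (SREBF2), chr7:155297878-155310235 (INSIG1), chr10:100347233-100364826 (SCD), chrX:48521808-48528716 (EBP), chr4:110045846-110199202 (ELOVL6) and chr11:61799627-61817003 (FADS1).

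Per kilobase of exon, the CTRL DMSO cells expressed SCD, the desaturase that makes oleate from stearate, most highly of the 35, at 252 ± 22.1 CPM per kb (SD, n = 3). ACLY, which makes cytosolic acetyl-CoA from citrate, followed at 143 ± 1.68, above FDPS (farnesyl diphosphate synthase) at 97.7 ± 7.97 and FASN (fatty acid synthase) at 96.00 ± 10.8, whose SDs overlapped. At the low end stood ACACB, the mitochondrial acetyl-CoA carboxylase, at 0.813 ± 0.130, and ME1, malic enzyme, at 0.0711 ± 0.00611 CPM per kb. ME1 was between 0.104 and 0.260 CPM in every library.

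**Figure D1:**
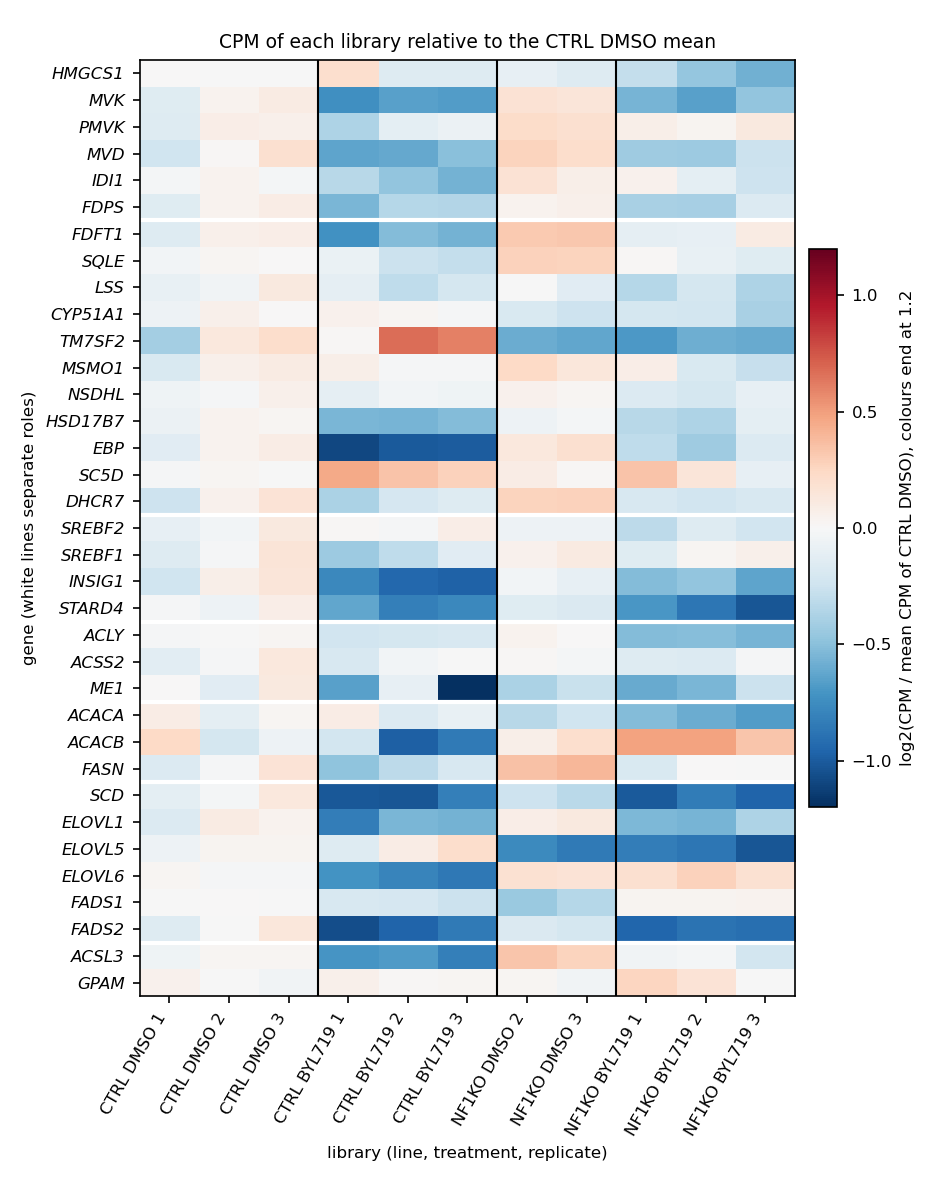
Level of each of the 35 genes (rows, by role) in each of the 11 libraries (columns), as log2 of its CPM over the mean CPM of CTRL DMSO, with colours ending at 1.2. Most rows turn blue in both BYL719 blocks, while TM7SF2 and SC5D turn red in CTRL BYL719, ELOVL5 is blue throughout NF1KO, and ELOVL6 is blue in CTRL BYL719 alone.

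The first comparison asks what BYL719 did in CTRL cells. Most of these transcripts fell: 21 of the 35 members were called lower and 2 higher (edgeR quasi-likelihood test, adjusted p under 0.05), 23 in all, beside 44.4% of all tested genes called in either direction, 21.8% of all tested genes called lower and 22.6% called higher. The median log2 fold change of the members was -0.29, beside 0.00 over all tested genes. Summed over the 35 members, the level was 5809, 6237 and 6615 CPM in the DMSO libraries and 4634, 4758 and 4962 CPM in the BYL719 libraries, with no overlap. Without both CTRL libraries numbered 1, 23 members were lower and 2 higher. The 14 fatty acid genes summed to 3666, 3861 and 4167 CPM in DMSO and 2665, 2774 and 2976 in BYL719. The 17 sterol enzymes moved less as a sum, from 1785, 1981 and 2015 to 1648, 1664 and 1644 CPM. Abundant genes weigh most in such sums, and SCD, given below, was the largest gene of the fatty acid sum. By calls the sets were alike, with 64.7% of the sterol enzymes and 64.3% of the fatty acid genes called. Of the sterol enzymes 9 were lower and 2 higher, and of the fatty acid genes 9 were lower and 0 higher.

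Of the 6 mevalonate and isoprenoid enzymes, 4 fell in CTRL. MVK, mevalonate kinase, was at 43.3, 49.2 and 51.1 CPM in DMSO and 28.7, 30.4 and 30.1 in BYL719 (log2 fold change -0.69, SE 0.08, adjusted p = 1.86e-05). Counts at MVK sit beside its overlapping neighbour MMAB, which drew 130% as many counts. MVD, the decarboxylase that ends the mevalonate steps, went from 32.9, 39.3 and 44.3 to 25.02, 25.4 and 27.5 CPM (log2 fold change -0.58, SE 0.10, adjusted p = 0.00056). All 3 BYL719 libraries lay below all 3 DMSO libraries for both genes. IDI1, which isomerises isopentenyl diphosphate, fell to 72.9% of its DMSO level and FDPS to 75.2% (log2 fold changes -0.46 and -0.41). WDR37, which overlaps IDI1, drew 31.1% as many counts. HMGCS1, the synthase that opens the route, was not called: it was at 198, 195 and 197 CPM in DMSO and 226, 176 and 176 in BYL719, where replicate 1 was the high library. Without both CTRL libraries numbered 1, HMGCS1 was still not called (log2 fold change -0.16, adjusted p = 0.125). PMVK, phosphomevalonate kinase, had a log2 fold change of -0.18 (adjusted p = 0.106), and with the replicate number as a block it was called lower (-0.18, adjusted p = 0.0282), as it was when CTRL DMSO replicate 1 was left out (adjusted p = 0.0291).

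The 11 enzymes from squalene to cholesterol split. EBP, the isomerase that moves the sterol double bond, had the largest fall of the 35: 92.6, 105 and 108 CPM in DMSO against 47.9, 50.6 and 51.1 in BYL719, or 48.9% (log2 fold change -1.03, SE 0.08, adjusted p = 1.16e-06). FDFT1, squalene synthase, went from 259, 301 and 305 to 175, 201 and 195 CPM (log2 fold change -0.60, SE 0.08, adjusted p = 0.000131). HSD17B7, a sterol ketoreductase, fell to 68.7% (log2 fold change -0.54, SE 0.08, adjusted p = 0.000216), and its pseudogene HSD17B7P2 drew 9.29% as many counts. In each of these 3 genes the groups did not overlap. SQLE, squalene epoxidase, fell less, to 86.7% (log2 fold change -0.21, adjusted p = 0.0292), and was not called when CTRL DMSO replicate 2 or 3 or CTRL BYL719 replicate 2 or 3 was left out, adjusted p = 0.0635 to 0.139. LSS, which closes the ring to lanosterol, fell to 86.6% (log2 fold change -0.21, adjusted p = 0.0485), but was not called in 9 of the 11 fits that each left out 1 library, adjusted p = 0.0506 to 0.168, and called without CTRL DMSO replicate 1 or CTRL BYL719 replicate 1.

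Both members that rose in CTRL are also sterol enzymes. SC5D, the desaturase of a late step, was at 132, 135 and 133 CPM in DMSO and 183, 169 and 161 in BYL719, without overlap (log2 fold change 0.36, SE 0.10, adjusted p = 0.0089). TM7SF2, a sterol reductase, was at 66.5, 95.9 and 102 CPM in DMSO and 88.9, 140.5 and 134 in BYL719, so the groups overlapped and the libraries numbered 1 were the low ones in both. Its rise was called (log2 fold change 0.46, SE 0.17, adjusted p = 0.0435) but was not called in 9 of the 11 fits that each left out 1 library, adjusted p = 0.0537 to 0.16, and called without CTRL DMSO replicate 3 or CTRL BYL719 replicate 1. Over those fits the log2 fold change ran from 0.29 without CTRL DMSO replicate 1 to 0.64 without CTRL BYL719 replicate 1, and without both libraries TM7SF2 was called at 0.47 (adjusted p = 6.21e-05). CYP51A1, MSMO1 and NSDHL, the enzymes that strip the methyl groups from lanosterol, were not called and lay within -0.06 and 0.02 on the log2 scale. DHCR7, the last reductase, stood at 115, 142 and 153 CPM in DMSO and 105, 119 and 122 in BYL719 and was not called (log2 fold change -0.24, adjusted p = 0.0564). The replicate block called it lower (-0.24, adjusted p = 0.0139), and so did the fit without CTRL DMSO replicate 1 (adjusted p = 0.0026), DESeq2 (adjusted p = 0.0486) and the fit with no filter (adjusted p = 0.0433).

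Among the regulators, INSIG1, itself a classical SREBP target that retains SREBP in the endoplasmic reticulum, was at 77.6, 96.04 and 101 CPM in DMSO and 53.6, 47.6 and 46.8 in BYL719 (log2 fold change -0.89, SE 0.10, adjusted p = 1.60e-05). STARD4, which carries cholesterol between membranes, went from 17.01, 16.5 and 18.1 to 11.2, 9.76 and 10.1 CPM (log2 fold change -0.73, SE 0.09, adjusted p = 5.87e-05). Neither pair of groups overlapped. The transcription factor genes were measured too. SREBF1, the factor more tied to fatty acid genes, was at 107, 119 and 134 and 88.4, 96.8 and 109.5 CPM, overlapping, with a called fall (log2 fold change -0.29, adjusted p = 0.0297) that was not called when CTRL DMSO replicate 2 or 3 or CTRL BYL719 replicate 1 or 2 was left out, adjusted p = 0.0609 to 0.111. RAI1, which overlaps SREBF1, drew 30.9% as many counts. SREBF2, the factor most tied to sterol genes, was at 156, 163 and 181 CPM and 168, 165 and 176 CPM and was not called (log2 fold change 0.03, adjusted p = 0.783).

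Of the 14 fatty acid genes, 9 fell in CTRL by the test. The desaturases and elongases held the largest changes, with 5 of 6 lower and a median log2 fold change of -0.71. SCD was at 1246, 1327 and 1479 CPM in DMSO and 667, 662 and 764 in BYL719 (log2 fold change -0.95, SE 0.09, adjusted p = 3.48e-06). FADS2, the delta-6 desaturase of polyunsaturated fatty acids, went from 129, 143 and 158 to 68.6, 73.6 and 79.4 CPM (log2 fold change -0.96, SE 0.08, adjusted p = 2.00e-06). Both genes ended near the same share of their DMSO level (51.7% and 51.5%), with no overlap between groups. ELOVL6, which elongates palmitate to stearate, was at 30.5, 29.8 and 29.8 CPM in DMSO and 18.2, 17.4 and 16.5 in BYL719 (log2 fold change -0.79, SE 0.06, adjusted p = 1.36e-06). ELOVL1, the elongase of very long saturated chains, went to 64.2% of its DMSO level (log2 fold change -0.64, SE 0.09, adjusted p = 0.000151). FADS1, the delta-5 desaturase, fell only to 85.96% (log2 fold change -0.22, SE 0.06, adjusted p = 0.00917). FADS2 overlaps FADS1 and drew 377% as many counts as it. ELOVL5, which elongates polyunsaturated chains, was not called (log2 fold change 0.06, adjusted p = 0.65).

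Of the 6 genes that feed and build the chain, 3 were called lower: ACLY, FASN and ACACB. ACLY was at 621, 623 and 634 CPM in DMSO and 533, 542 and 549 in BYL719 (log2 fold change -0.21, SE 0.05, adjusted p = 0.0075), and FASN at 734, 815 and 918 against 587, 659.9 and 721 CPM (log2 fold change -0.33, SE 0.10, adjusted p = 0.017). Both sets of groups were apart, and FASN was not called without CTRL DMSO replicate 3, adjusted p = 0.0664. ACACB went from 9.04, 6.65 and 7.35 to 6.60, 3.89 and 4.26 CPM (log2 fold change -0.64, SE 0.18, adjusted p = 0.0114), with replicate 1 the highest library of each treatment, and at -0.79 without both CTRL libraries numbered 1 (adjusted p = 9.02e-05). ACACA, the cytosolic carboxylase that makes malonyl-CoA for synthesis, was not called, at 240.01, 208 and 231 CPM in DMSO and 240.3, 202 and 213 in BYL719. ACSL3, which activates long-chain fatty acids for lipid droplets, fell from 122, 128 and 128 to 76.8, 78.8 and 71.2 CPM without overlap (log2 fold change -0.74, SE 0.07, adjusted p = 5.21e-06). ACSS2 (acetyl-CoA from acetate), ME1 and GPAM (the first acylation of glycerol phosphate) were not called.

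**Figure D2:**
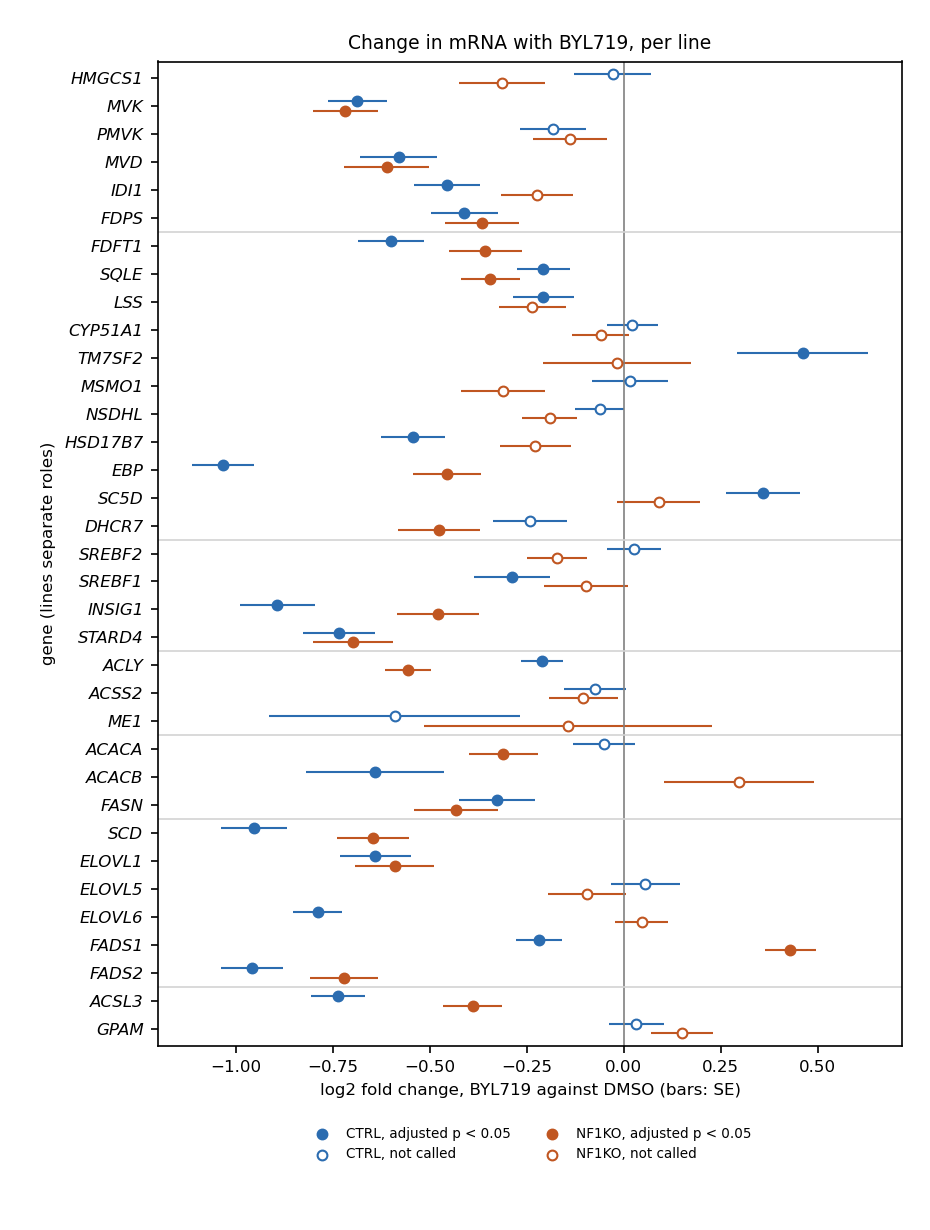
Log2 fold change of BYL719 against DMSO for each member in CTRL (blue) and NF1KO (orange), with bars of 1 SE. Filled points passed an adjusted p of 0.05. Most points of both colours lie left of 0, and the colours part at EBP, ACACB, ELOVL6 and FADS1.

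The next comparison is the same treatment in NF1KO. Here 17 members were called, beside 18.7% of all tested genes: 16 were lower and 1 higher, beside 8.47% and 10.3% of all tested genes. The members' median log2 fold change was -0.31, beside 0.01 over all tested genes. The 35 genes summed to 6262 and 6185 CPM in the 2 DMSO libraries and 4709.98, 4823 and 4718 CPM in the 3 BYL719 libraries, without overlap. Of the members, 14 were lower in both lines. A further 6 were called lower in CTRL but not in NF1KO, and 2, DHCR7 and ACACA, were called lower in NF1KO but not in CTRL. FADS1 was called lower in CTRL and higher in NF1KO. The shares of all tested genes called in both lines or in 1 line alone were not computed. Over all tested genes, 44.4% were called in CTRL and 18.7% in NF1KO. Without both CTRL libraries numbered 1, 21 members were lower and 2 higher in NF1KO, beside 33.3% of all tested genes called. When 1 library outside the NF1KO DMSO group was left out, the count of members called lower ran from 13 to 18. The share of all tested genes called ran from 11.2% to 24.8% over the same fits. Leaving out an NF1KO DMSO library leaves 1 in that group, and fewer members and fewer of all tested genes were then called. The members' median log2 fold change was -0.26 without replicate 2 and -0.30 without replicate 3, beside 0.01 over all tested genes.

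MVK was again lower, at 54.03 and 52.9 CPM in DMSO and 32.5, 30.5 and 34.6 in BYL719 (log2 fold change -0.72, SE 0.08, adjusted p = 0.00023). MVD went from 46.8 and 44.98 to 28.9, 28.7 and 32.6 CPM (log2 fold change -0.61, SE 0.11, adjusted p = 0.00303) and STARD4 from 15.5 and 15.2 to 10.6, 9.40 and 8.45 CPM (log2 fold change -0.70, SE 0.10, adjusted p = 0.00106). Of the 6 mevalonate and isoprenoid enzymes, 3 were called lower in NF1KO, MVK, MVD and FDPS, and IDI1, which fell in CTRL, was not called (log2 fold change -0.22, adjusted p = 0.118). The difference between the lines was not called for MVK, MVD or STARD4 (-0.03, -0.03 and 0.04 on the log2 scale, SE 0.11, 0.15 and 0.14). FDPS fell to 77.6% (log2 fold change -0.37, adjusted p = 0.0205) but was not called when NF1KO DMSO replicate 2 or 3 or NF1KO BYL719 replicate 1 or 2 was left out, adjusted p = 0.0659 to 0.134. HMGCS1, at 184 and 177 CPM in DMSO and 161, 143 and 132 in BYL719, was not called (log2 fold change -0.31, adjusted p = 0.0692), although the groups did not overlap. It was called lower in 7 of 21 alternative fits and IDI1 in 4. MSMO1, a sterol enzyme not called in the main fit, was called lower in 8 of 21.

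EBP was at 112 and 117 CPM in NF1KO DMSO and 82.8, 75.95 and 90.8 in BYL719, or 72.9% (log2 fold change -0.46, SE 0.09, adjusted p = 0.00449), and was not called without NF1KO DMSO replicate 3, adjusted p = 0.0613. DHCR7 went from 164 and 165 to 119.6, 116 and 119 CPM (log2 fold change -0.48, SE 0.11, adjusted p = 0.009) and was not called when NF1KO DMSO replicate 2 or 3 was left out, adjusted p = 0.062 to 0.0729. SQLE fell to 78.8% and was not called when NF1KO DMSO replicate 2 or 3 was left out, adjusted p = 0.0776 to 0.0827. FDFT1 fell to 78.1% and was not called when NF1KO DMSO replicate 2 or 3 or NF1KO BYL719 replicate 1 or 2 was left out, adjusted p = 0.0683 to 0.13. In all 4 sterol enzymes the NF1KO groups did not overlap. Of the 35 members, 24 were lower and 3 higher without overlap in NF1KO. With 2 DMSO and 3 BYL719 libraries this describes the libraries and is not a sign of change beyond the calls. The share of all tested genes without overlap was not computed. SC5D and TM7SF2, which were higher in CTRL, were not called in NF1KO: TM7SF2 was at 58.2 and 57.3 CPM in DMSO and 54.6, 58.7 and 57.8 in BYL719. INSIG1 went from 89.7 and 85.7 to 64.1, 65.8 and 59.2 CPM (log2 fold change -0.48, SE 0.11, adjusted p = 0.00917), without overlap, and was not called when NF1KO DMSO replicate 2 or 3 was left out, adjusted p = 0.058 to 0.0804.

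ACLY fell further in NF1KO than in CTRL, from 643 and 629.5 to 436, 439 and 424 CPM (log2 fold change -0.56, SE 0.06, adjusted p = 0.000149). SCD went from 1134 and 1078 to 672, 754 and 695 CPM (log2 fold change -0.65, SE 0.09, adjusted p = 0.000909) and FADS2 from 127 and 124 to 74.1, 77.7 and 76.6 CPM (log2 fold change -0.72, SE 0.09, adjusted p = 0.000323). For both desaturases the NF1KO BYL719 libraries lay within the range of the CTRL BYL719 libraries. ELOVL1 fell to 66.4% (log2 fold change -0.59, adjusted p = 0.0024). FASN fell to 74.1% (log2 fold change -0.43, adjusted p = 0.0168) and was not called when NF1KO DMSO replicate 2 or 3 or NF1KO BYL719 replicate 1 was left out, adjusted p = 0.0599 to 0.123. ACACA fell to 80.7% (log2 fold change -0.31, adjusted p = 0.0313) and was not called when NF1KO DMSO replicate 2 or 3 or NF1KO BYL719 replicate 2 or 3 was left out, adjusted p = 0.0754 to 0.241. ACSL3 fell to 76.4% (log2 fold change -0.39, adjusted p = 0.00481) and was not called without NF1KO DMSO replicate 2, adjusted p = 0.0608. ELOVL6 was at 33.96 and 33.7 CPM in DMSO and 34.3, 36.4 and 34.1 CPM in BYL719 (log2 fold change 0.05, adjusted p = 0.692).

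Whether the 2 lines responded differently was then tested directly, as the log2 fold change with BYL719 in NF1KO minus that in CTRL. This difference was called for 5 members, beside 9.39% of all tested genes. It was above 0 for 4 of them and below 0 for 1, beside 5.68% and 3.71% of all tested genes. The median difference was 0.04, beside 0.01 over all tested genes. ELOVL6 had the smallest adjusted p: BYL719 took it to 57.9% in CTRL and to 103% in NF1KO (difference of log2 fold changes 0.83, SE 0.09, adjusted p = 0.000166). All 5 NF1KO libraries lay above all 6 CTRL libraries for this gene. FADS1 was at 29.3, 29.5 and 29.4 CPM in CTRL DMSO, 25.7, 25.5 and 24.6 in CTRL BYL719, 21.5 and 23.1 in NF1KO DMSO and 29.98, 30.1 and 30.2 in NF1KO BYL719 (difference 0.65, SE 0.09, adjusted p = 0.000601). Its NF1KO DMSO libraries were the lowest of the 11, and under BYL719 the NF1KO libraries were above every CTRL library. Both calls held in all 20 alternative fits. FADS2, which overlaps FADS1, fell in both lines, with a difference that was not called (0.24, adjusted p = 0.294).

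EBP fell in both lines but less in NF1KO (difference 0.58, SE 0.12, adjusted p = 0.00974), and was not called without NF1KO DMSO replicate 2, adjusted p = 0.0649. ACLY fell more in NF1KO (difference -0.35, SE 0.08, adjusted p = 0.0184), and was not called when CTRL DMSO replicate 2 or NF1KO DMSO replicate 2 or 3 was left out, adjusted p = 0.0538 to 0.117. ACACB was at 8.08 and 8.80 CPM in NF1KO DMSO and 10.7, 10.7 and 9.67 in NF1KO BYL719, the reverse order of CTRL (difference 0.94, SE 0.26, adjusted p = 0.0441). That call was the least firm of the 5: it was not called in 9 of the 11 fits that each left out 1 library, adjusted p = 0.0609 to 0.186, and called without CTRL DMSO replicate 2 or CTRL BYL719 replicate 1, and with RLE scaling its adjusted p was 0.0501. ACSL3 and INSIG1 were not called (0.35, adjusted p = 0.058, and 0.42, adjusted p = 0.103), though each was called when both CTRL libraries numbered 1 were left out (adjusted p = 0.024 and 0.000783). The difference for TM7SF2, not called at -0.48 (adjusted p = 0.323), was called below 0 without both of those libraries (-0.49, adjusted p = 0.00188) and without CTRL BYL719 replicate 1 (-0.66, adjusted p = 0.0371). With the replicate number as a block, 7 members were called with a higher and 3 with a lower log2 fold change in NF1KO, which added FDFT1, SCD and ACSL3 to the first and HMGCS1 and ACACA to the second. With numbers blocked within each genotype the counts were 11 and 7. Of all tested genes, the replicate block called 13.9% and the block within each genotype 27.0%, beside 9.39% in the main fit.

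**Figure D3:**
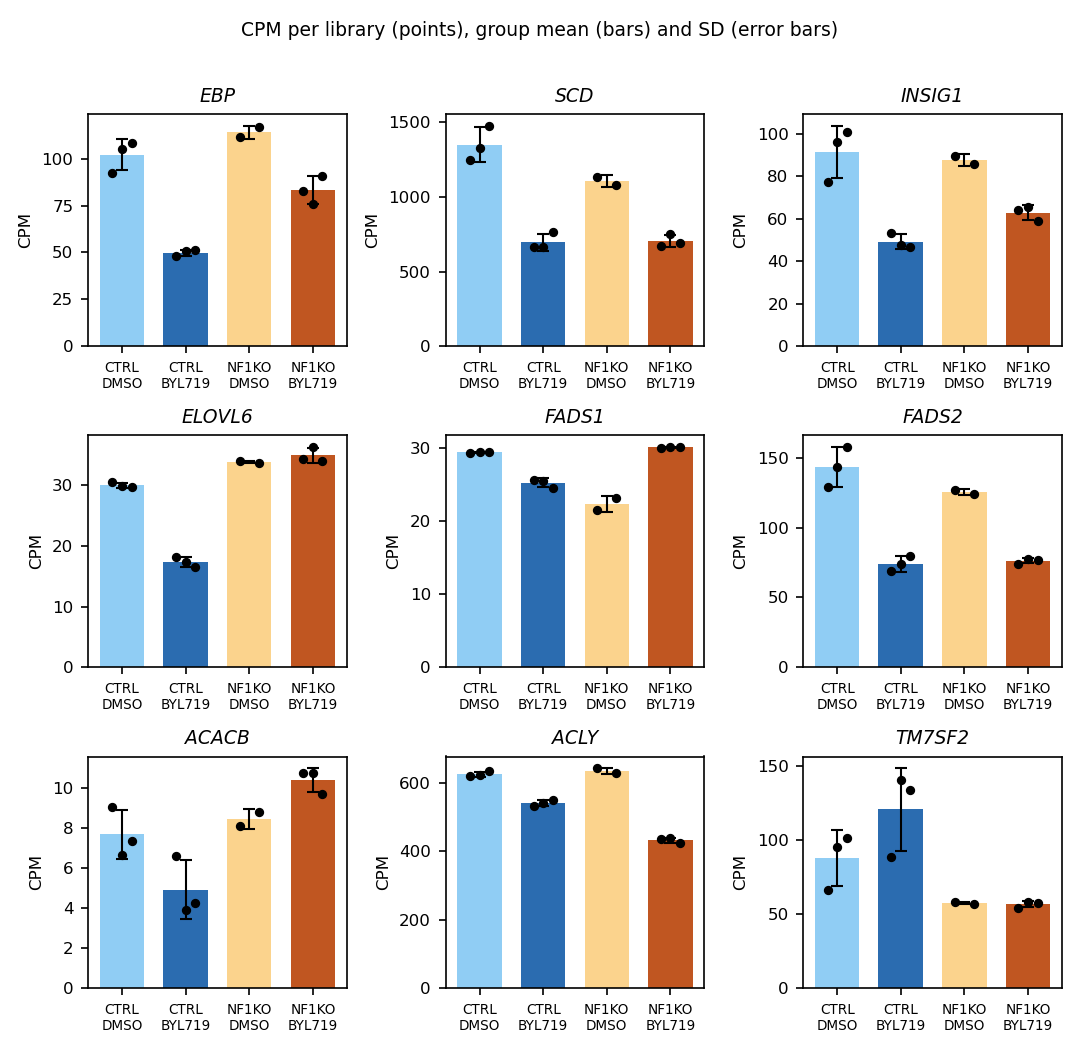
CPM of 9 members in each library (points), with the group mean (bars from 0) and SD (error bars). ELOVL6 is low in CTRL BYL719 alone, FADS1 is low in NF1KO DMSO and highest in NF1KO BYL719, and TM7SF2 shows the low CTRL libraries numbered 1.

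The remaining question is how the lines differed within a treatment. In DMSO, 8 members were called, beside 20.3% of all tested genes: 4 were higher and 4 lower in NF1KO than in CTRL, beside 9.99% and 10.3% of all tested genes, so the members' share called was close to that of all genes. The members' median was 0.04, beside -0.01. ELOVL5 had the largest difference, at 255, 273 and 273 CPM in CTRL and 157 and 148 in NF1KO (log2 fold change -0.81, SE 0.10, adjusted p = 0.000142). FADS1 was at 76.02% of the CTRL level (log2 fold change -0.40, SE 0.07, adjusted p = 0.00111). These were the 2 calls of this comparison that held in every alternative. Without both CTRL libraries numbered 1, 7 members were called lower in place of 4, adding CYP51A1 (-0.24, adjusted p = 0.0258), SCD (-0.34, adjusted p = 0.00956) and FADS2 (-0.26, adjusted p = 0.0124).

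The other 6 calls in DMSO were smaller or less even. FASN was at 734, 815 and 918 CPM in CTRL and 1047 and 1087 in NF1KO (log2 fold change 0.38, adjusted p = 0.0291), and was not called when CTRL DMSO replicate 1 or 2 or NF1KO DMSO replicate 2 or 3 was left out, adjusted p = 0.0698 to 0.167. ACSL3 was at 123% of CTRL (log2 fold change 0.30, adjusted p = 0.0163), and was not called when NF1KO DMSO replicate 2 or 3 was left out, adjusted p = 0.0694 to 0.143. FDFT1 was at 125% (log2 fold change 0.32, adjusted p = 0.0307), and was not called when CTRL DMSO replicate 1 or NF1KO DMSO replicate 2 or 3 was left out, adjusted p = 0.0821 to 0.154. None of these 3 overlapped between the lines. SQLE was at 121% (log2 fold change 0.27, adjusted p = 0.0263), and was not called when CTRL DMSO replicate 1, 2 or 3 or NF1KO DMSO replicate 2 or 3 was left out, adjusted p = 0.0525 to 0.147. TM7SF2 was at 65.6% (log2 fold change -0.61, adjusted p = 0.0442), and was not called in 8 of the 11 fits that each left out 1 library, adjusted p = 0.0532 to 0.201, and called without CTRL DMSO replicate 1 or CTRL BYL719 replicate 1 or 2. ACACA was at 82.2% (log2 fold change -0.28, adjusted p = 0.0448), and was not called in 7 of the 11 fits that each left out 1 library, adjusted p = 0.0512 to 0.283, and called without CTRL DMSO replicate 2, CTRL BYL719 replicate 1 or 2 or NF1KO BYL719 replicate 3.

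Under BYL719, 19 members were called between the lines, beside 39.8% of all tested genes. In DMSO, with 2 NF1KO libraries in place of 3, it was 8 beside 20.3%, so calls rose over all genes too. Under BYL719, 12 members were higher and 7 lower in NF1KO, beside 20.8% and 19% of all tested genes. The members' median was 0.11, beside -0.00. This comparison uses BYL719 libraries that also entered the comparisons above, so its calls are not separate evidence. ELOVL6 was 201% of the CTRL level (log2 fold change 1.01, SE 0.06, adjusted p = 1.31e-07) and ACACB 211% (log2 fold change 1.08, SE 0.18, adjusted p = 0.000401). EBP was at 167% (log2 fold change 0.74, SE 0.08, adjusted p = 1.42e-05), ACSL3 at 156% and FDFT1 at 148%. On the other side, TM7SF2 was at 47.1% (log2 fold change -1.09, SE 0.17, adjusted p = 0.000292), ELOVL5 at 51.4% (log2 fold change -0.96, SE 0.09, adjusted p = 4.31e-06) and ACACA at 68.7%. HMGCS1, CYP51A1, SREBF2 and ACLY were also lower, with log2 fold changes from -0.41 to -0.26. FDFT1, FASN and ACSL3 were higher in NF1KO in both treatments and TM7SF2, ACACA and ELOVL5 lower in both.

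Of the other members higher under BYL719, IDI1 (0.36) and FADS1 (0.25) were called in every fit. INSIG1 (0.35) was not called without CTRL BYL719 replicate 3, adjusted p = 0.0561. PMVK (0.25) was not called when CTRL BYL719 replicate 1 or NF1KO BYL719 replicate 1, 2 or 3 was left out, adjusted p = 0.0567 to 0.101. HSD17B7 (0.28) was not called when CTRL BYL719 replicate 2 or 3 or NF1KO BYL719 replicate 3 was left out, adjusted p = 0.0518 to 0.0684. SREBF1 (0.27), whose groups overlapped, was not called in 7 of the 11 fits that each left out 1 library, adjusted p = 0.0533 to 0.129, and called without CTRL DMSO replicate 1 or 3, CTRL BYL719 replicate 3 or NF1KO BYL719 replicate 1. FASN (0.27) was not called in 7 of the 11 fits that each left out 1 library, adjusted p = 0.0548 to 0.133, and called without CTRL DMSO replicate 1 or 3, CTRL BYL719 replicate 3 or NF1KO BYL719 replicate 1. The values in parentheses are log2 fold changes.

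The genes within 5 Mb of each member were compared between the lines as a description added after the values were seen. Around CYP51A1 on chromosome 7, 41 of 47 tested neighbours were below 0 in DMSO, with a median log2 fold change of -0.44, and the median was -0.48 in BYL719. CYP51A1 itself was at -0.21 and -0.29. Around ELOVL5 the medians were -0.04 and 0.14, and around TM7SF2 0.10 and 0.05, while both members were called lower. Neighbours of ELOVL6 had medians of -0.13 and -0.20, opposite in sign to ELOVL6. Around FADS1 and FADS2, which share a window, the median was 0.06 in DMSO. GPAM, which was not called in either treatment, had neighbours with medians of -0.19 and -0.19.

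**Figure D4:**
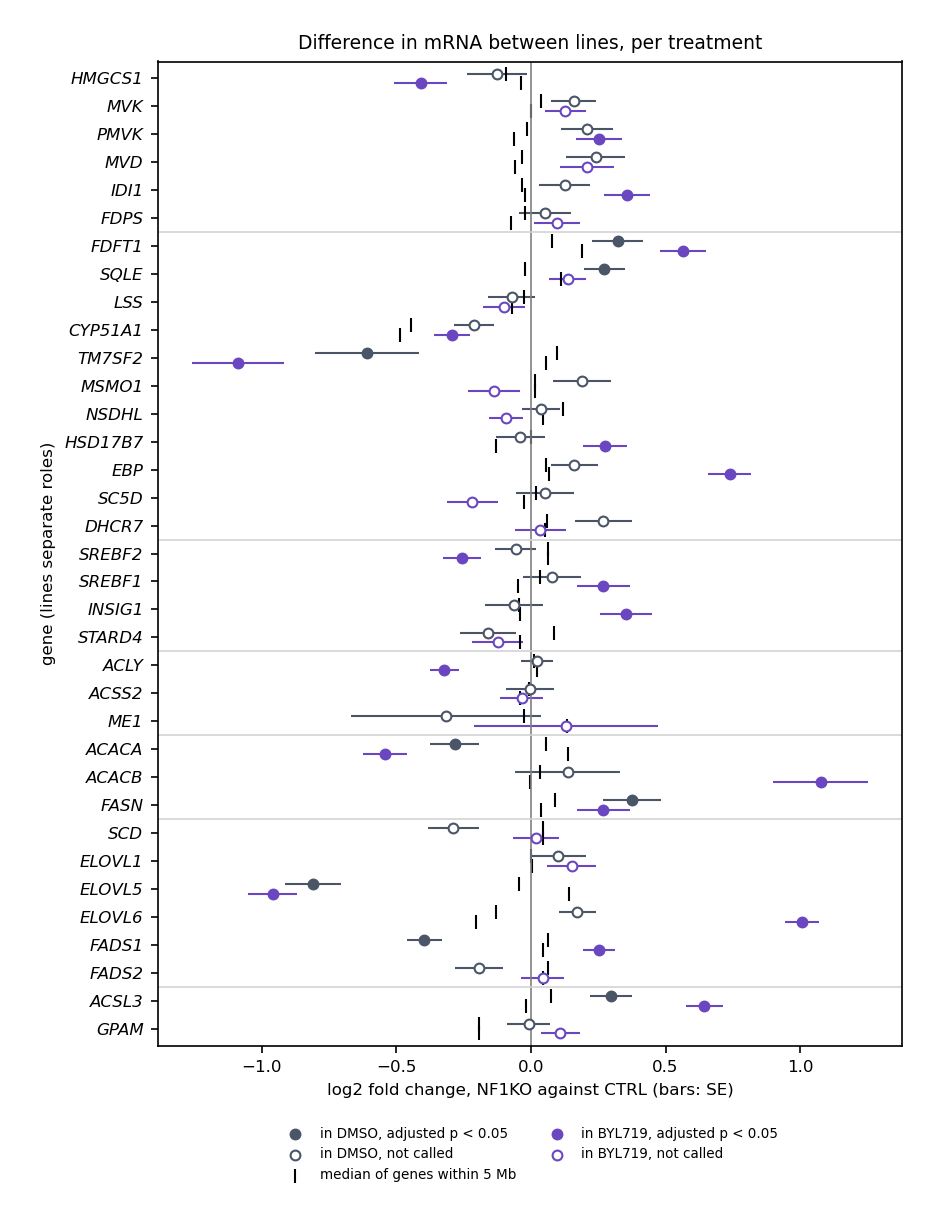
Log2 fold change of NF1KO against CTRL for each member in DMSO (grey) and BYL719 (purple), with bars of 1 SE, filled points where the adjusted p was under 0.05, and black ticks at the median of the genes within 5 Mb. ELOVL5 and TM7SF2 lie far left of their ticks in both treatments, ELOVL6 and ACACB lie right in BYL719, and CYP51A1 lies right of ticks near -0.44 and -0.48.

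Promoter letters were set beside the calls as a description. Of the 24 members with an NF-Y box, 14 were lower and 2 higher with BYL719 in CTRL (median log2 fold change -0.33), and of the 8 with a window but no box, 4 were lower and 0 higher (median -0.25). In NF1KO the counts were 12 lower and 0 higher with a box (median -0.31), and 1 lower and 1 higher without (median -0.08). Of all tested genes, 21.8% were lower and 22.6% higher in CTRL, and 8.47% and 10.3% in NF1KO. The 8 without a box include ELOVL6 and FADS1, both printed above, and FADS2, which is not printed. Of these 8, the windows of ELOVL6, CYP51A1, PMVK and GPAM lie inside the gene's span. So do those of ACLY, MVK and ACACB among the 24. For these genes the bases just before the outermost start were not searched, so a box there would be missed. No test was made between the sets.

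Other genes of the pathway, listed by role and not among the 35, are read beside the 22.6% of all tested genes called higher and 21.8% called lower with BYL719 in CTRL, and the 10.3% and 8.47% in NF1KO. Of other sterol pathway genes, 3 of 11 tested were higher and 2 lower with BYL719 in CTRL (45.5% called, beside 44.4% of all tested genes). ACAT2, which makes the acetoacetyl-CoA that HMGCS1 uses, was at 121, 128 and 122 CPM in CTRL DMSO and 60.9, 63.6 and 60.3 in BYL719 (log2 fold change -1.01, SE 0.06, adjusted p = 2.26e-07). LBR, the other sterol reductase of the step that TM7SF2 catalyses, went to 42.9% (log2 fold change -1.22, SE 0.08, adjusted p = 2.48e-07), opposite in direction to TM7SF2. SOAT1, which esterifies cholesterol for storage, rose to 155% (log2 fold change 0.63, adjusted p = 8.92e-05). In NF1KO, 1 of 11 was higher and 2 lower: ACAT2 fell to 66.4% (log2 fold change -0.59, adjusted p = 0.000283). LBR fell to 77.1% and was not called when NF1KO DMSO replicate 2 or 3 was left out, adjusted p = 0.0598 to 0.108. FAXDC2, a hydroxylase family member, rose to 422% (log2 fold change 2.08, adjusted p = 0.004) from 0.240 and 0.163 CPM and was not called without NF1KO DMSO replicate 3, adjusted p = 0.0748.

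Of the SREBP processing genes, 3 of 13 tested were higher and 0 lower in CTRL (23.1% higher, beside 22.6% of all tested genes). INSIG2, the paralogue of INSIG1, rose to 149.8% (log2 fold change 0.58, SE 0.09, adjusted p = 0.000189), opposite to INSIG1. NFYB, a subunit of NF-Y, rose to 136% (log2 fold change 0.44, adjusted p = 0.000789). SCAP and both site proteases were not among the calls with BYL719 in either line.

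Of other fatty acid synthesis genes, 1 of 19 tested was higher and 7 lower in CTRL (42.1% called, beside 44.4% of all tested genes). THRSP, a lipogenic regulator, fell to 41.1% (log2 fold change -1.28, SE 0.24, adjusted p = 0.00103) from 7.39, 9.59 and 10.9 CPM. HSD17B12, the ketoreductase of chain elongation, fell to 67.3% (log2 fold change -0.57, SE 0.07, adjusted p = 3.68e-05), and ACSL1 to 79.9% (log2 fold change -0.32, adjusted p = 0.00383). FADS3, next to FADS1 and FADS2, rose to 143% (log2 fold change 0.52, adjusted p = 0.00097). In NF1KO, 2 of 19 were higher and 3 lower. ACSL1 fell to 68.9% (log2 fold change -0.54, adjusted p = 0.00128) and ELOVL2 rose to 139.7% (log2 fold change 0.48, adjusted p = 0.00102). HSD17B12 fell to 82.7% and was not called when NF1KO DMSO replicate 2 or 3 or NF1KO BYL719 replicate 2 or 3 was left out, adjusted p = 0.0523 to 0.193.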

How the data were processed

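Messenger RNA libraries of T47D cells were prepared with a stranded polyA kit and read from 1 end, per the labels. The deposited values are raw counts per gene. STAR 2.5.2a, SAMtools 1.7, Picard 2.9.2, edgeR and the build hg38 are named in the submitters' processing notes. The counting tool, annotation and strand setting are not given in the sources used here. Of the labelled samples, replicate 1 of NF1KO in DMSO is not analysed here. The members and gene lists were chosen with earlier results of these data known. Named genes are NF1, all members and up to 4 called genes per other list and comparison, by adjusted p, except a few that are not reported here.

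Counts were tested in R 4.3.3 with edgeR 4.0.16 (filterByExpr, TMM, quasi-likelihood, 4 groups in 1 fit with 7 residual degrees of freedom), 2-sided, with Benjamini-Hochberg adjustment over 16081 genes and a threshold of 0.05, after the code was tested on simulated data. An SE is the log2 fold change divided by the square root of F. Where groups are said not to overlap, this describes the libraries, and the share over all tested genes was not computed. CPM used TMM-scaled library sizes. Levels per kb used GENCODE v29 exon lengths. The results were recomputed with DESeq2 1.42.0, with limma 3.58.1 (voom), with scaling by RLE or by the upper quartile, without a filter or with at least 1 CPM in 3 libraries, with only the groups compared, a replicate block, leaving out each library, and leaving out both CTRL libraries numbered 1.

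Same-numbered CTRL libraries deviated together from their group means (r = 0.59, 0.34 and 0.32 across genes, from log CPM with a prior count of 2), so the numbers were taken to pair CTRL libraries. CTRL libraries of different numbers gave -0.42 to 0.23, with 0.23 and 0.18 between replicates 2 and 3. Same-numbered NF1KO libraries gave 0.08 and 0.15. The 2 NF1KO DMSO libraries deviate equally and oppositely from their mean, so each NF1KO value recurs with its sign reversed. The main fit had no replicate block. The labels do not say whether replicates are separate cultures, so p-values measure only the spread between these libraries.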

Additional observations from a re-analysis of the deposited data

Results flagged for a closer look

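The response of 5 members to BYL719 differed between NF1KO and CTRL by the direct test of that difference (edgeR quasi-likelihood test, adjusted p under 0.05 over all tested genes). That is 14.3% of the 35 members, beside 9.39% of all tested genes. ELOVL6 had a difference of log2 fold changes of 0.83, since its level went down in CTRL with no called change in NF1KO. FADS1 had a difference of 0.65, called lower in CTRL and higher in NF1KO. For EBP the difference was 0.58, with a called fall in both lines. ACLY had a difference of -0.35, with the larger fall in NF1KO. ACACB had a difference of 0.94 at a level between 3.89 and 10.7 CPM, low beside most members.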

How the results depend on the processing

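Over 35 members, 5 comparisons and the alternatives run for each, 3340 of 3564 gene results from edgeR, DESeq2 or limma kept their side of the threshold, 131 lost a call, 93 gained one and 0 called results reversed. Calls held under every alternative for 18 of 23 members with BYL719 in CTRL, 8 of 17 with BYL719 in NF1KO, 2 of 8 between lines in DMSO, 14 of 19 between lines in BYL719 and 2 of 5 for the difference of effects. When 1 library was left out at a time, members called lower with BYL719 numbered 17 to 23 in CTRL. Of all tested genes, 37.6% to 46.7% were called there. In NF1KO they numbered 13 to 18 with both NF1KO DMSO libraries kept, beside 11.2% to 24.8% of all tested genes called. Fewer members and fewer of all tested genes were called without 1 of these libraries. Members called higher with BYL719 numbered 1 to 2 in each line. Between lines, 9 to 13 were higher and 7 to 8 lower in BYL719, and in DMSO 0 to 5 were higher and 2 to 6 lower. For the difference of effects, 2 to 6 were higher and 0 to 2 lower. The counts of 0 came from edgeR without 1 of the NF1KO DMSO libraries or, for the difference, CTRL DMSO replicate 2. Fitting only the libraries compared left 1 member higher with BYL719 in CTRL, in place of 2. With both CTRL libraries numbered 1 left out, 2 members were higher and 21 lower with BYL719 in NF1KO, in place of 1 and 16. Of all tested genes, 33.3% were then called there. Between lines in DMSO, 7 were lower in place of 4, with 26.0% of all tested genes called. For the difference of effects, 2 were lower in place of 1, with 15.1% of all tested genes called. The replicate block gave 7 members lower between lines in DMSO, and for the difference of effects 7 higher in place of 4 and 3 lower in place of 1. The block within each genotype gave 2 members higher with BYL719 in NF1KO, and 11 higher and 7 lower for the difference. Of all tested genes, the replicate block called 25.9% between lines in DMSO and 13.9% for the difference. The block within each genotype called 41.9% with BYL719 in NF1KO and 27.0% for the difference. Same-numbered libraries deviated together in CTRL and not clearly in NF1KO. The cause of these changes was not tested. With 2 NF1KO DMSO libraries and 7 residual degrees of freedom, the number of libraries limits the precision, and depth does so at ME1.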

Other observations

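Genes of sterol efflux that answer to the LXR receptors were followed as a neighbouring group. In CTRL, 3 of 8 tested were higher and 1 lower with BYL719, beside 22.6% and 21.8% of all tested genes. ABCA1, the cholesterol exporter, was at 0.945, 0.711 and 0.742 CPM in DMSO and 2.66, 2.96 and 2.76 in BYL719 (log2 fold change 1.80, SE 0.19, adjusted p = 1.30e-05), and in NF1KO at 0.738 and 0.525 and 2.32, 1.93 and 1.58 CPM (log2 fold change 1.62, SE 0.23, adjusted p = 0.000777). MYLIP, a ubiquitin ligase for lipoprotein receptors, rose to 162% in CTRL and 149.8% in NF1KO (log2 fold change 0.70, adjusted p = 4.66e-06, and log2 fold change 0.58, adjusted p = 0.000359). ABCG1 rose to 139.8% in CTRL, but was not called in 9 of the 11 fits that each left out 1 library, adjusted p = 0.051 to 0.141, and called without CTRL DMSO replicate 2 or CTRL BYL719 replicate 1. ABCG4, another sterol exporter, was the lower call in CTRL, at 0.498, 0.583 and 0.538 CPM in DMSO and 0.152, 0.149 and 0.242 in BYL719 (log2 fold change -1.56, SE 0.32, adjusted p = 0.00207).

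Of the fatty acid oxidation genes, 4 of 16 tested were higher and 6 lower in CTRL, beside 22.6% and 21.8% of all tested genes. CPT2, which reforms acyl-CoA in mitochondria, fell to 73.3% (log2 fold change -0.45, adjusted p = 0.000183), and ECI2 to 65.9% (log2 fold change -0.60, adjusted p = 0.000331). In NF1KO, 2 of 16 tested were higher and 2 lower, where ECI2 fell to 70.6% and was not called without NF1KO DMSO replicate 3, adjusted p = 0.0918. Of the glycerolipid genes, 0 of 11 tested were higher and 2 lower in CTRL. PLIN2, a lipid droplet coat protein, fell to 66.4% (log2 fold change -0.59, adjusted p = 1.78e-05), and PLIN3 to 76.3% (log2 fold change -0.39, adjusted p = 0.0175), the latter not called when CTRL DMSO replicate 2 or 3 was left out, adjusted p = 0.0599 to 0.0612.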
